A study of Rattus norvegicus with 18 samples.

Results

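The genes described here are the collagen chains and a set of proteins that modify, process or crosslink them, measured in the rat adrenal gland. Members were taken by name: every gene name on the array that begins with Col and a digit (36 names) and 9 named proteins, P4ha1, P4ha2, Plod1, Plod2, Plod3, Lox, Loxl1, Loxl2 and Pcolce. That gave 45 of the 26612 gene names on the array, represented by 57 probes, and the brightest probe stood for each gene. Of the 45, 42 passed the filter for testing, which asked that a gene's signal be flagged well above background by all 3 arrays of some group. The 3 that were not, Col9a3, Col24a1 and Col8a2, have no level that can be read here. One name taken by the rule is no collagen: Col4a3bp is the ceramide transporter, which RefSeq now names Cert1.

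Total RNA of adrenal glands was hybridised to 18 one-colour Agilent arrays, 3 for each of 6 groups. The strains were Wistar-Kyoto (WKY), which is normotensive, the spontaneously hypertensive rat (SHR) and its stroke-prone relative (SHRSP), each at 3 and at 6 weeks of age. The labels name no treatment. The labels call the 3 arrays of a group biological replicates, and give neither sex nor the number of animals behind an array. SHR and SHRSP are inbred lines with a shared origin, so a strain difference compares whole genomes and not one gene.

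Collagens are triple helices of 3 chains. The fibril-forming types (I, II, III, V, XI, XXVII) make the tensile fibres of connective tissue, with type V chains setting fibril diameter. Type IV forms the network of basement membranes, type VI forms beaded filaments beside cells, and the fibril-associated types (IX, XIV, XVI, XIX, XXII) coat fibrils. Before secretion, prolyl 4-hydroxylases (P4ha1, P4ha2) stabilise the helix and lysyl hydroxylases (Plod1, Plod2, Plod3) prepare lysines for crosslinks. Outside the cell, Pcolce enhances removal of the C-terminal propeptide, and Lox, Loxl1 and Loxl2 oxidise lysines so that fibrils crosslink. In the adrenal gland, fibroblasts of the capsule and the stroma and the walls of sinusoids are the known sources of such matrix.

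A level below is the log2 of a gene's signal minus that of the array's 75th percentile, so 0 is the 75th percentile of that array. Levels of different probes cannot be compared, and each gene is followed across groups only. On each array 77.8% to 84.8% of spots passed the scanner software's background test, with 0 saturated, and the signal at the 75th percentile was 2092 to 2602. Marker genes of steroid-producing cortex and of chromaffin cells (10 each) were measured, with at least 9 of 10 well above background in every group. One liver gene stood apart: albumin was at 5.47 on SHR 3-week array 2, 0.50 on SHR 3-week array 3 and 0.83 on SHRSP 3-week array 2, against -3.49 to -1.77 on the other 15 arrays. Counts of calls, and members with full statistics whose call changed, are therefore given with and without those 3 arrays below. Age differences of the other members are given with all arrays only, and how far they rest on those 3 is not shown. Without them the SHR 3-week group is 1 array whose spread is taken from the other groups.

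The largest pattern among the members was a fall from 3 to 6 weeks of age. In WKY, 17 of the 42 tested members were lower at 6 weeks and 2 were higher, where over all genes tested 7.17% were lower and 5.15% higher. In SHR, 23 members were lower and 5 higher, against 14.2% and 15.1% of all genes. In SHRSP, 25 were lower and 3 higher, against 18.5% and 10.5% of all genes. Averaged over the strains, 24 members were lower and 5 higher, against 22.4% and 17% of all genes, with a member median of -0.485 and a median over all genes of 0.002. These calls, and all those below, are from limma's moderated test fitted to all 18 arrays, at a Benjamini-Hochberg adjusted p below 0.05 over 20859 genes (a few less where a group lacked a value). Without the 3 arrays of high albumin, 14 members were called in SHR (4 higher, 10 lower), 23 in SHRSP and 27 in the average, and all 28 members called in SHR had the same sign.

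**Figure D1:**
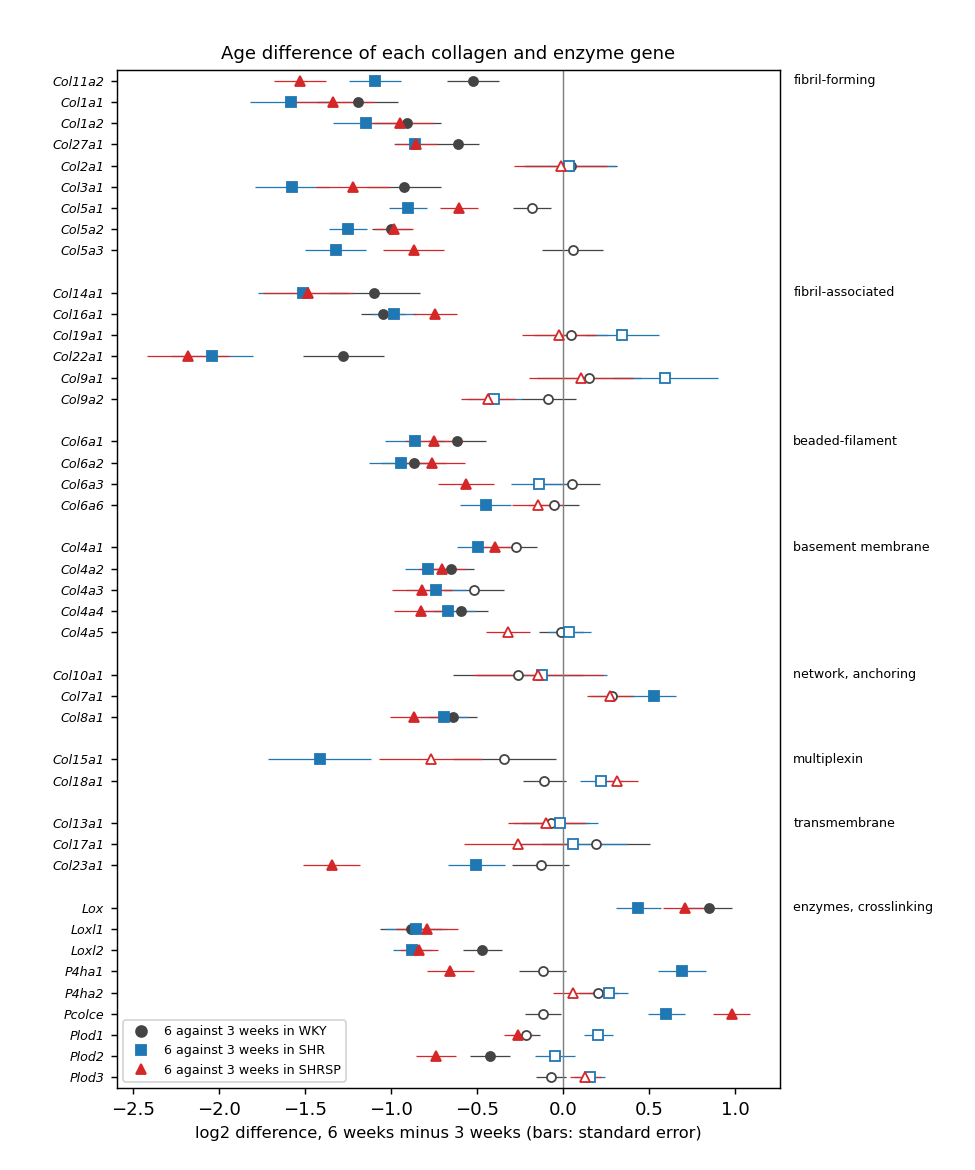
Difference in log2 level between 6 and 3 weeks for each tested member (rows, grouped by role) in WKY (grey circles), SHR (blue squares) and SHRSP (red triangles), with standard errors as bars; filled symbols passed the adjusted p of 0.05. Most fibril-forming, fibril-associated, beaded-filament and basement membrane chains lie left of 0, while Lox lies right of 0 in the 3 strains and P4ha1 and Pcolce are spread apart by strain.

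Most fibril-forming chains fell with age. Of the 9 tested, 6 were lower at 6 weeks in WKY, 8 in SHR and 8 in SHRSP, with medians of -0.615, -1.15 and -0.951, and none was higher in any strain. Col1a1, the alpha 1 chain of type I collagen, read 4.12, 3.99 and 4.09 in WKY, 3.66, 3.74 and 4.31 in SHR and 3.84, 4.05 and 3.81 in SHRSP at 3 weeks. At 6 weeks it read 2.90, 3.34 and 2.38 in WKY, 2.01, 2.25 and 2.71 in SHR and 2.83, 2.53 and 2.33 in SHRSP. Every 6-week array was below every 3-week array. The difference was -1.20 ± 0.24 (SE, n = 3 and 3 arrays) in WKY, -1.58 ± 0.24 in SHR and -1.34 ± 0.24 in SHRSP, with limma adjusted p of 0.00472, 0.00025 and 0.000771. In linear terms the signal at 6 weeks was 0.437, 0.334 and 0.395 times that at 3 weeks, and a second Col1a1 probe gave -1.17, -1.2 and -1.5.

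Col1a2, the partner chain of type I, fell by 0.91, 1.15 and 0.95 in WKY, SHR and SHRSP. Its 3-week arrays ranged from 4.43 to 5.05 and its 6-week arrays from 3.36 to 4.31, with no overlap. Col3a1, the single chain of type III, read 3.81, 3.80 and 3.73 in WKY, 3.45, 3.73 and 4.16 in SHR and 3.70, 3.85 and 3.72 in SHRSP at 3 weeks. By 6 weeks the values were 3.08, 3.08 and 2.40 in WKY, 2.05, 2.03 and 2.53 in SHR and 2.84, 2.54 and 2.22 in SHRSP, again below all 3-week arrays. The fall was 0.93, 1.58 and 1.22, with adjusted p of 0.0123, 0.000125 and 0.000754. Col5a2, the type V chain that neighbours Col3a1 on chromosome 9, had the smallest adjusted p of the members in the average over strains: it fell by 1.08 ± 0.07 (adjusted p = 2.94e-08). In SHR without the arrays of high albumin, the Col1a2 difference was -0.87 (adjusted p = 0.0669), with the same sign but not called.

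**Figure D2:**
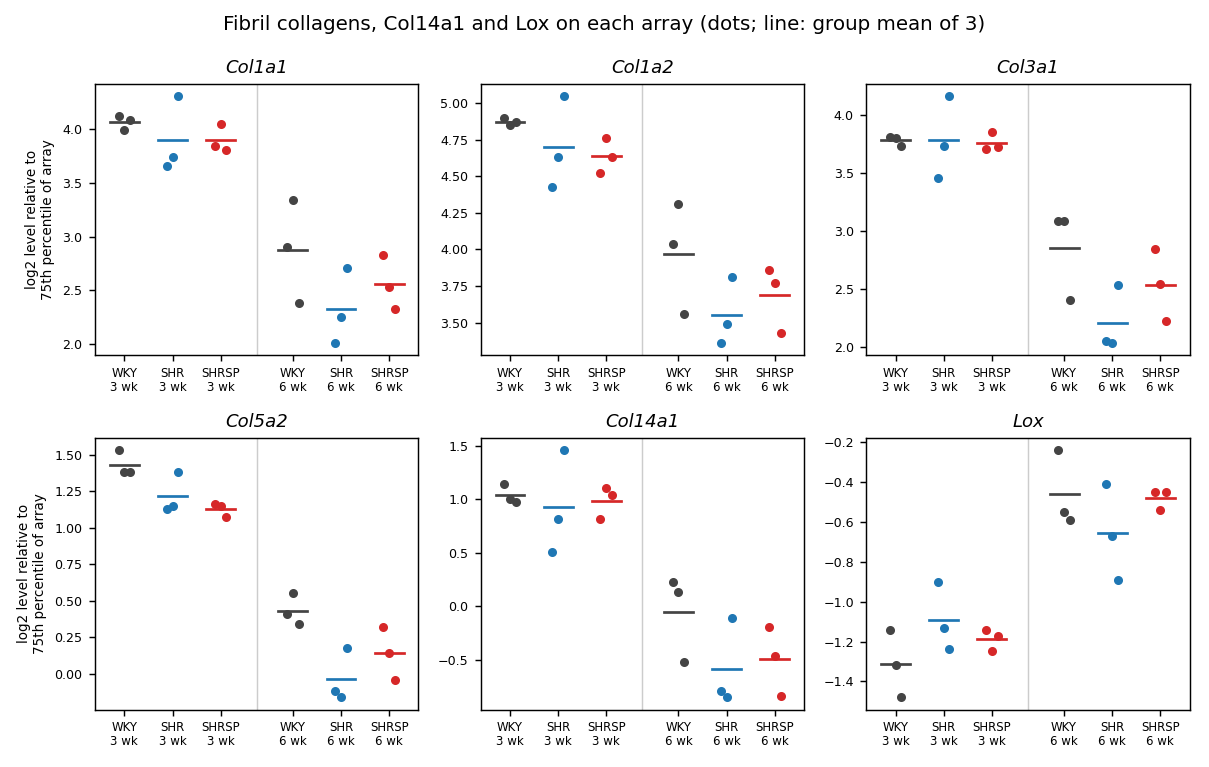
Log2 level relative to the array's 75th percentile (vertical axes) on each of the 18 arrays for Col1a1, Col1a2, Col3a1, Col5a2, Col14a1 and Lox, by strain and age (horizontal axes); dots are arrays and lines are means of 3. The 5 collagens are lower on the 6-week arrays, and Lox is higher.

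The sequence upstream of Col1a2 is shown because this chain stands for the type I pair and its start site is in the RefSeq promoter table, which held 35 of the 45 members. The 250 bases before the start (GRCr8, plus strand, chr4:33518307-33518556) hold a CCAAT box, here read on the opposite strand as ATTGG, and a TATAAA, both in capitals.
Col1a2: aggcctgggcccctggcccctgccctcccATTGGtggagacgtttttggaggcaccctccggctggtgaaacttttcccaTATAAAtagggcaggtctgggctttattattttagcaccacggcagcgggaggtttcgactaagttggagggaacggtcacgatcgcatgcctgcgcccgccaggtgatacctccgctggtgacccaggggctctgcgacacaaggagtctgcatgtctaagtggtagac
Searched on both strands in the same 250-base windows of 33469 RefSeq starts, CCAAT occurred in 34% and TATAAA in 12.9%.

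Col11a2, a type XI chain best known from cartilage, fell by 0.52 in WKY, 1.1 in SHR and 1.53 in SHRSP. Its 6-week arrays read -3.68, -3.56 and -4.15 in WKY, -4.39, -4.15 and -3.99 in SHR and -4.62, -4.41 and -4.36 in SHRSP. The age change in SHRSP differed from that in WKY by -1.01 ± 0.21 (adjusted p = 0.00905); a second probe of the gene gave smaller differences, -0.15, -0.15 and -0.79. Col27a1, a fibrillar chain of cartilage and developing tissue, fell by 0.62, 0.86 and 0.86. Col2a1, the cartilage collagen, stayed low and flat, with differences of 0.05, 0.03 and -0.02, none called.

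Of 6 fibril-associated chains, 3 fell in every strain and 3 did not pass in any single strain. Col22a1, known from tissue junctions, showed the largest fall of any member: it read -3.45 to -2.82 over the 9 arrays at 3 weeks. The 6-week arrays read -5.04, -4.37 and -4.30 in WKY, -5.70, -5.11 and -4.80 in SHR and -5.16, -5.39 and -5.58 in SHRSP. The differences were -1.28 ± 0.24, -2.04 ± 0.24 and -2.18 ± 0.24, with adjusted p of 0.00317, 3.39e-05 and 1.4e-05. Col14a1, which binds the surface of type I fibrils, fell by 1.1, 1.51 and 1.48; in WKY the call was lost without 3-week array 1 (-1.05, adjusted p = 0.0547) or 6-week array 3 (-0.86, adjusted p = 0.0551). In SHR without the arrays of high albumin it was -1.1 (adjusted p = 0.0798). Col16a1 fell by 1.05, 0.98 and 0.75. Col9a1, Col9a2 and Col19a1 had no call in a single strain, though Col9a2 was lower in the average over strains (-0.31, adjusted p = 0.0157). The 3 probes of Col9a1 disagreed in direction, so none is given for it.

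Of 4 beaded-filament chains of type VI, 2 fell with age in WKY, 3 in SHR and 3 in SHRSP. Col6a1 fell by 0.62, 0.86 and 0.75 in WKY, SHR and SHRSP and Col6a2, its neighbour on chromosome 20, by 0.87, 0.94 and 0.76. Col6a1 read -0.79 to -0.14 over the 3-week arrays and -1.55 to -1.06 over the 6-week arrays. Its call in WKY (adjusted p = 0.0289) was lost with slide as a block (-0.64, adjusted p = 0.0546) and without any 1 of 4 of the 6 arrays (3-week arrays 1, 2 or 3 or 6-week array 3; -0.67 to -0.49, adjusted p up to 0.103). In SHR without the arrays of high albumin the difference was -0.61 (adjusted p = 0.11). Col6a6, measured on all 18 arrays, was called in SHR (-0.45, adjusted p = 0.0333) and not in WKY (-0.06) or SHRSP (-0.15). Col6a3 was well above background on 10 of 18 arrays, close to the limit. Only SHRSP at 3 weeks had all 3 arrays well above background, so Col6a3 passed the filter through that group alone. Its call in SHRSP (-0.57) starts from that same group and is no support for a fall. It is counted among the 3 chains above and the 25 members lower in SHRSP.

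Basement membrane chains also fell. Of 5 tested, 2 were lower in WKY, 4 in SHR and 4 in SHRSP, with medians of -0.518, -0.67 and -0.704. Col4a2 fell by 0.65, 0.78 and 0.70, with adjusted p of 0.00656, 0.00077 and 0.00147; without the arrays of high albumin the SHR value was -0.70 (adjusted p = 0.0724). Col4a1 fell by 0.50 in SHR and 0.40 in SHRSP, while -0.27 in WKY did not pass (the mean of its probes gave -0.44, adjusted p = 0.0164). The SHRSP call of Col4a1 was lost without any 1 of 4 of its 6 arrays (3-week array 2 or 3, 6-week array 2 or 3; -0.40 to -0.30, adjusted p up to 0.1), and without the arrays of high albumin (-0.40, adjusted p = 0.0523). The SHR call was also lost without those arrays (-0.33, adjusted p = 0.265). Col4a3 and Col4a4, the chains of kidney and other specialised membranes that lie side by side on chromosome 9, fell by 0.52, 0.74 and 0.82 and by 0.60, 0.67 and 0.83. The WKY difference of Col4a3 was not called. Col4a5, on the X chromosome, had differences of -0.01, 0.04 and -0.32, none called.

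Among the other classes, Col8a1, a short-chain collagen of vessel walls, fell by 0.64, 0.70 and 0.87. Col15a1, a multiplexin beneath endothelium and muscle, read 0.74 to 1.71 at 3 weeks and -0.93, -0.28 and 0.54 in SHR at 6 weeks. It was called in SHR (-1.42 ± 0.30, adjusted p = 0.00302), with -0.34 in WKY and -0.77 in SHRSP not called. When only the arrays of the strain were fitted, the SHR call was lost (adjusted p = 0.0638) and the SHRSP difference passed (adjusted p = 0.00746). Without the arrays of high albumin the SHR value was -1.08, with only 1 SHR array left at 3 weeks, so it does not show that the call holds. Over the strains Col15a1 fell by 0.84 (adjusted p = 0.00148). Its age change in SHR against WKY, -1.07, was not called (adjusted p = 0.16) and rested on SHR 6-week array 3: without it the value was -1.45 (adjusted p = 0.0344). Without that array the 6-week differences of SHR against WKY (-1.07, adjusted p = 0.00885) and SHRSP against SHR (0.96, adjusted p = 0.0289) were called too. Col7a1, the anchoring-fibril collagen, went the other way in SHR, from -2.98, -2.54 and -2.66 to -2.14, -2.21 and -2.24 (0.53 ± 0.13, adjusted p = 0.00764). Col10a1, Col13a1 and Col17a1 had no call in any comparison; Col10a1 was well above background on 10 arrays and Col17a1 on 13.

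Crosslinking enzymes did not move as one group. Lox, the founding lysyl oxidase, rose with age in each strain: from -1.14, -1.32 and -1.48 to -0.24, -0.55 and -0.59 in WKY, from -0.90, -1.13 and -1.24 to -0.41, -0.67 and -0.89 in SHR, and from -1.14, -1.25 and -1.17 to -0.45, -0.54 and -0.45 in SHRSP. Within each strain the ages did not overlap. The rise was 0.85 ± 0.13, 0.44 ± 0.13 and 0.71 ± 0.13, with adjusted p of 0.000935, 0.0237 and 0.00116. The SHR call was lost without any 1 of 4 of its 6 arrays (3-week array 2 or 3, 6-week array 1 or 2; 0.31 to 0.44, adjusted p up to 0.0928) and was 0.24 (adjusted p = 0.502) without the arrays of high albumin. Loxl1, which serves elastic fibres, fell by 0.89, 0.86 and 0.79, and Loxl2, which crosslinks type IV collagen, by 0.47, 0.88 and 0.84. Col4a3bp, the ceramide transporter, rose by 0.60, 0.66 and 0.32. Its SHRSP call was lost without 3-week array 1 or 2 or 6-week array 2 (0.20 to 0.30, adjusted p up to 0.112), with normexp background correction (0.26, adjusted p = 0.0503) and without the arrays of high albumin (0.30, adjusted p = 0.103).

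A list of 15 fibroblast and mesenchymal markers moved with the collagens. All 15, among them Pdgfra, Dcn and Lum, were well above background in every group, and 9, 11 and 8 of them were lower at 6 weeks in WKY, SHR and SHRSP, with none higher. Of all genes, 7.17%, 14.2% and 18.5% were lower. Their summed level, in multiples of the 75th percentile, ran from 9.50 to 9.80 in WKY, 9.32 to 13.9 in SHR and 10.6 to 13.3 in SHRSP at 3 weeks. At 6 weeks it ran from 5.20 to 7.64, 5.87 to 8.09 and 5.85 to 7.82. Smooth muscle and pericyte markers had 0, 3 and 1 of 8 lower, and endothelial markers 2, 2 and 5 of 10 lower. White and brown fat markers had 0, 6 and 3 of 9 lower, and their summed level in SHR ran from 65.6 to 135 at 3 weeks and from 33.8 to 48.3 at 6 weeks. In the average over strains, 14 of 15 fibroblast, 6 of 8 smooth muscle, 6 of 10 endothelial and 6 of 9 fat markers were lower. None of these was higher, and 22.4% of all genes were lower, so the fall was not particular to fibroblast markers. The part of these cell types in the collagen differences was not tested, and in RNA from whole glands fewer cells of a type and less RNA per cell cannot be told apart.

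The genes most like the fibrillar trio were found by correlating each tested gene with the mean of Col1a1, Col1a2 and Col3a1 over the 18 arrays. Col14a1 came first (Pearson r = 0.99), then an array probe with no gene name (A_64_P092419, r = 0.982), Col5a2 (0.976), Shisa3 (0.967) and Cercam (0.961). Most of these values carry the shared age step: within the 9 arrays of one age, r was 0.949 at 3 weeks and 0.944 at 6 weeks for Col14a1, but 0.516 and 0.906 for Shisa3 and 0.654 and 0.831 for Cercam. At the other end, Lox had r = -0.838 over 18 arrays, and -0.629 and 0.134 within the ages. The arrays share tissue, platform and age structure, so these are descriptions of the 18 arrays.

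Strain differences among the members were fewer at 3 weeks. SHR had 3 members higher and 2 lower than WKY, where 9.02% and 9.2% of all genes were called. SHRSP had 5 higher and 4 lower than WKY, where 14.8% and 11.4% of all genes were called. Between SHRSP and SHR, 1 member was lower and 0 were higher, against 3.2% and 4.73% of all genes; at an unadjusted limma p below 0.05 there were 2 and 3. These shares lie near the background, so the counts do not set the members apart. Both hypertensive strains are compared with the same 3 WKY arrays, so their differences from WKY are not independent. The 5 calls of SHR against WKY at 3 weeks ranged from 2 to 7 when 1 array was left out (3 without WKY array 1, 2 without WKY array 3, 3 without SHR array 3). Without the arrays of high albumin there were 0 calls of SHR against WKY (limma, with 3 members at an unadjusted p below 0.05) and 0 of SHRSP against SHR (also 3), while SHRSP against WKY had 8.

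At 6 weeks SHR had 8 members higher and 7 lower than WKY, against 16.2% and 13% of all genes. SHRSP had 5 higher and 8 lower, against 11.1% and 12.8%. Relative to SHR, SHRSP had 6 lower, against 8.21% of all genes, and 0 higher, against 6.74%, with 0 also at an unadjusted p below 0.05. Read by class, the fibril-forming chains were lower than WKY in 5 of 9 in SHR and 4 of 9 in SHRSP (medians -0.551 and -0.318) and higher in none. The 9 modifying and crosslinking proteins were higher in 5 in SHR, and 2 higher with 1 lower (Loxl2, -0.32, adjusted p = 0.0499) in SHRSP.

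**Figure D3:**
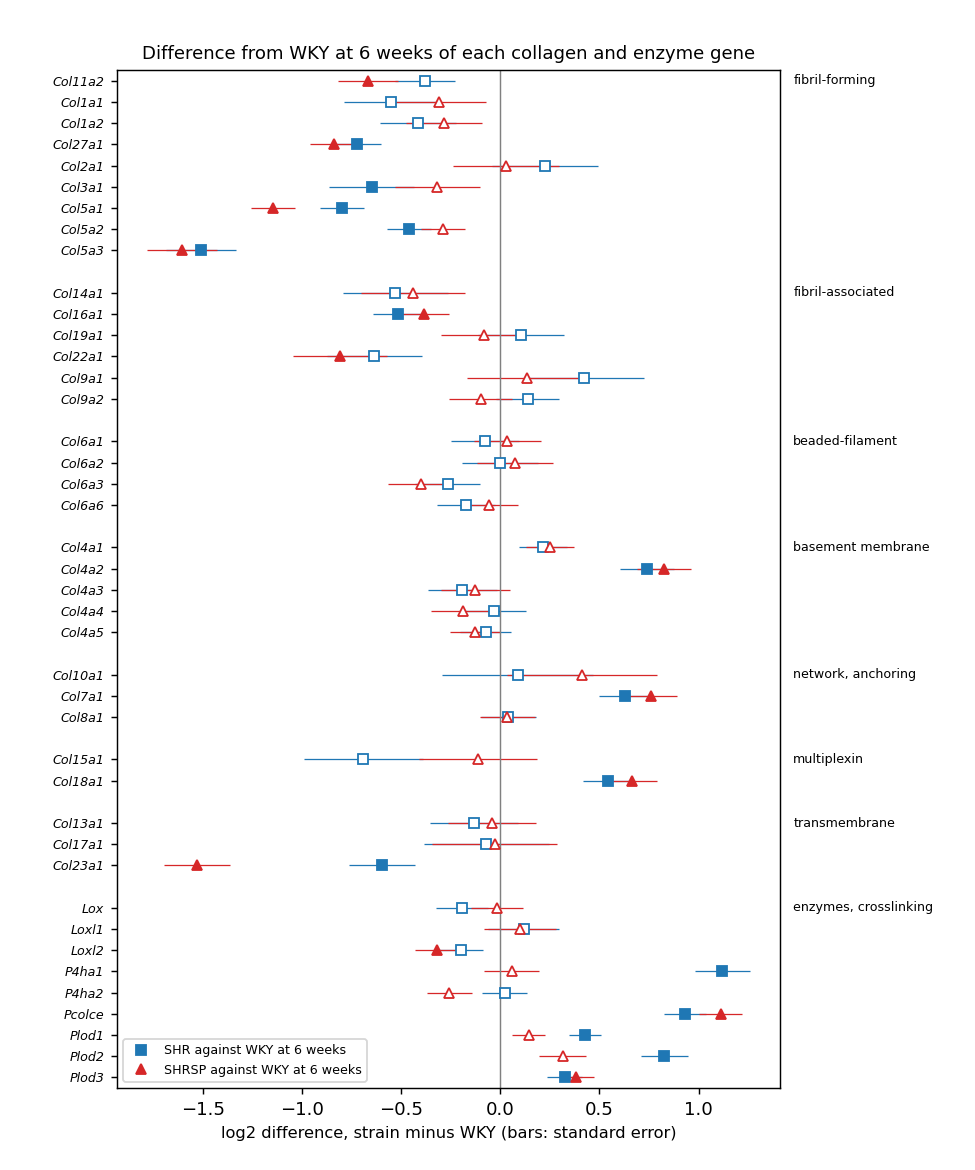
Difference in log2 level from WKY at 6 weeks for each tested member in SHR (blue squares) and SHRSP (red triangles), with standard errors as bars; filled symbols passed the adjusted p of 0.05. Col5a3 lies farthest left in both strains, at -1.51 and -1.60; P4ha1 lies farthest right in SHR at 1.12 and near 0 in SHRSP at 0.06, where Pcolce lies farthest right at 1.11.

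Among the fibril formers, Col5a3 and Col5a1 had the largest differences from WKY at 6 weeks, while the third type V chain, Col5a2, differed by -0.46 in SHR and -0.29 in SHRSP (not called). Col5a1 read -0.02, -0.16 and -0.08 in WKY, -0.25, -0.27 and 0.03 in SHR and -0.89, -0.71 and -0.84 in SHRSP at 3 weeks. By 6 weeks these were -0.23, -0.32 and -0.26 in WKY, -0.99, -1.23 and -0.98 in SHR and -1.19, -1.55 and -1.52 in SHRSP. SHRSP was thus already apart from both other strains at 3 weeks (-0.73 ± 0.11 against WKY, adjusted p = 0.000275; -0.65 ± 0.11 against SHR, adjusted p = 0.0025), and SHR moved below WKY by 6 weeks (-0.80 ± 0.11, adjusted p = 0.000121). The SHRSP difference from WKY at 6 weeks was -1.15. The difference between SHRSP and SHR at 6 weeks, -0.35, was at the threshold (adjusted p = 0.0481) with overlapping arrays, and was lost with slide as a block (-0.37, adjusted p = 0.0635), with quantile normalization (-0.33, adjusted p = 0.0668), with no filter on dim probes (adjusted p = 0.0716) and without SHR array 1 or 3 or SHRSP array 2 or 3 (-0.31 to -0.29, adjusted p up to 0.168). At 3 weeks it was -0.61 (adjusted p = 0.132) without the arrays of high albumin.

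Col5a3, a type V chain found in fewer tissues than the others, was flat with age in WKY, at 0.38, 0.47 and 0.44 and then 0.51, 0.51 and 0.43. In SHR it went from -0.04, 0.23 and 0.70 to -1.42, -1.0 and -0.66, and in SHRSP from -0.30, -0.24 and -0.21 to -1.15, -1.20 and -1.01. At 6 weeks both strains were far from the WKY arrays, by -1.51 ± 0.18 in SHR and -1.60 ± 0.18 in SHRSP (adjusted p = 2.89e-05 and 1.51e-05), or 0.351 and 0.329 times the WKY signal. On the slide that held these groups the values were -1.34 and -1.53. The age change differed from that in WKY by -1.38 ± 0.25 in SHR (adjusted p = 0.00706) and -0.92 ± 0.25 in SHRSP (adjusted p = 0.0314). The SHRSP value was not called without any 1 of 9 of the 12 arrays (-0.94 to -0.88, adjusted p up to 0.0668), and the SHR value was -1.04 (adjusted p = 0.125) without the arrays of high albumin. For Col5a1 the age change in SHR differed by -0.72 ± 0.16 (adjusted p = 0.0187), lost without WKY 3-week array 2 (-0.68, adjusted p = 0.0539) and without the arrays of high albumin (-0.63, adjusted p = 0.195).

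Col27a1 and Col16a1 were lower in both strains at both ages. Col27a1 read -3.71, -3.97 and -3.76 in WKY, -4.12, -4.46 and -4.31 in SHR and -4.36, -4.30 and -4.57 in SHRSP at 3 weeks, and -4.46, -4.44 and -4.38, -5.32, -5.27 and -4.87, and -5.33, -5.25 and -5.21 at 6 weeks. Neither strain overlapped WKY at either age. The differences from WKY were -0.48 and -0.60 at 3 weeks and -0.72 and -0.84 at 6 weeks, for SHR and SHRSP. The SHR call at 3 weeks was lost without WKY array 1 or 3 or SHR array 2 (-0.45 to -0.40, adjusted p up to 0.0721) and was -0.30 without the arrays of high albumin (adjusted p = 0.508). Col16a1 differed by -0.58 and -0.68 at 3 weeks and -0.51 and -0.38 at 6 weeks; the SHR value at 3 weeks was -0.66 (adjusted p = 0.0726) without the arrays of high albumin. Type I collagen was not called in any strain comparison with all arrays: Col1a1 differed by -0.16 and -0.17 at 3 weeks and by -0.55 and -0.31 at 6 weeks. Quantile normalization called both of its chains lower in SHR at 6 weeks (Col1a1 -0.72, adjusted p = 0.0373; Col1a2 -0.57, adjusted p = 0.0403). So did leaving out WKY array 3 (Col1a1 -0.80, adjusted p = 0.0203; Col1a2 -0.62, adjusted p = 0.0241), and for Col1a1 SHR array 3 (-0.74, adjusted p = 0.0451). Col3a1 was lower in SHR at 6 weeks (-0.65 ± 0.22, adjusted p = 0.0356), but the arrays overlapped, and the call was lost with slide as a block (-0.72, adjusted p = 0.0743), with no filter on dim probes (adjusted p = 0.0512), with the replicate block (adjusted p = 0.0527) and without any 1 of WKY arrays 1 or 2 or SHR arrays 1 or 2 (-0.57 to -0.54, adjusted p up to 0.129).

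Of the 5 type IV chains, 1 in each strain was called at 6 weeks, Col4a2, which was higher than in WKY; the medians of the 5 were -0.031 in SHR and -0.127 in SHRSP. Col4a2 read -1.71, -2.02 and -1.89 in WKY, -1.09, -1.03 and -0.89 in SHR and -1.13, -0.96 and -0.90 in SHRSP at 3 weeks. The 6-week arrays read -2.32, -2.76 and -2.50 in WKY, -1.63, -1.92 and -1.81 in SHR and -1.45, -1.77 and -1.88 in SHRSP. Chromaffin markers stood higher than in WKY at 3 weeks too, 4 of 10 in SHR and 7 of 10 in SHRSP, with summed levels of 82.4 to 89.2 in WKY, 108 to 111 in SHR and 130 to 147 in SHRSP; their part in the difference was not tested. For Col4a2 both strains lay above WKY with no overlap at either age, by 0.87 ± 0.14 and 0.88 ± 0.14 at 3 weeks (adjusted p = 0.000484 and 0.000306) and by 0.74 ± 0.14 and 0.82 ± 0.14 at 6 weeks (adjusted p = 0.00103 and 0.000476). Within single slides the difference was 0.58 to 1.01 at 3 weeks, and 0.90 for SHR and 0.88 for SHRSP at 6 weeks. Without the arrays of high albumin the SHR difference at 3 weeks was 0.79 (adjusted p = 0.0725). Its probe is given as chr16:82900301-82900360 on rn4, the build of the array's annotation, and is the only probe of the gene.

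Col4a1, the partner chain that shares a promoter region with Col4a2, was higher at 3 weeks only in part. It read 2.50, 2.47 and 2.49 in WKY, 2.76, 2.86 and 3.15 in SHR and 2.71, 2.86 and 3.01 in SHRSP, a difference of 0.44 ± 0.12 in SHR (adjusted p = 0.0193) and 0.38 ± 0.12 in SHRSP (adjusted p = 0.0315). Both calls were lost without single arrays: in SHR without any WKY array or SHR array 3 (0.33 to 0.45, adjusted p up to 0.0994), in SHRSP without any WKY array or SHRSP array 2 or 3 (0.30 to 0.38, adjusted p up to 0.139). Quantile normalization gave 0.33 in SHRSP (adjusted p = 0.0508), and leaving out the arrays of high albumin gave 0.27 in SHR (adjusted p = 0.538) and 0.38 in SHRSP (adjusted p = 0.0663). At 6 weeks the differences were 0.21 and 0.25, neither called. The chains are transcribed in opposite directions from starts 76 bases apart in RefSeq, and this stretch (GRCr8, the strand of Col4a1, chr16:84885521-84885596) is shown because both genes start from it; capitals mark GGGCGG, the GC box, read on the opposite strand.
Col4a2-Col4a1: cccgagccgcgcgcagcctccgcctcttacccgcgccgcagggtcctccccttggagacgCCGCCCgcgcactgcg
It holds 1 GC box. That box occurs in 30.5% of the 250-base windows before RefSeq starts, which are longer than the 76 bases shown, so the share is not a like comparison. No CCAAT was found in these 76 bases, but the 250 bases before the start held 1 CCAAT for Col4a1 and 1 for Col4a2. With a shared start region, the difference from WKY at 6 weeks was called for Col4a2 and not for Col4a1, and the difference between the chains was not tested.

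**Figure D4:**
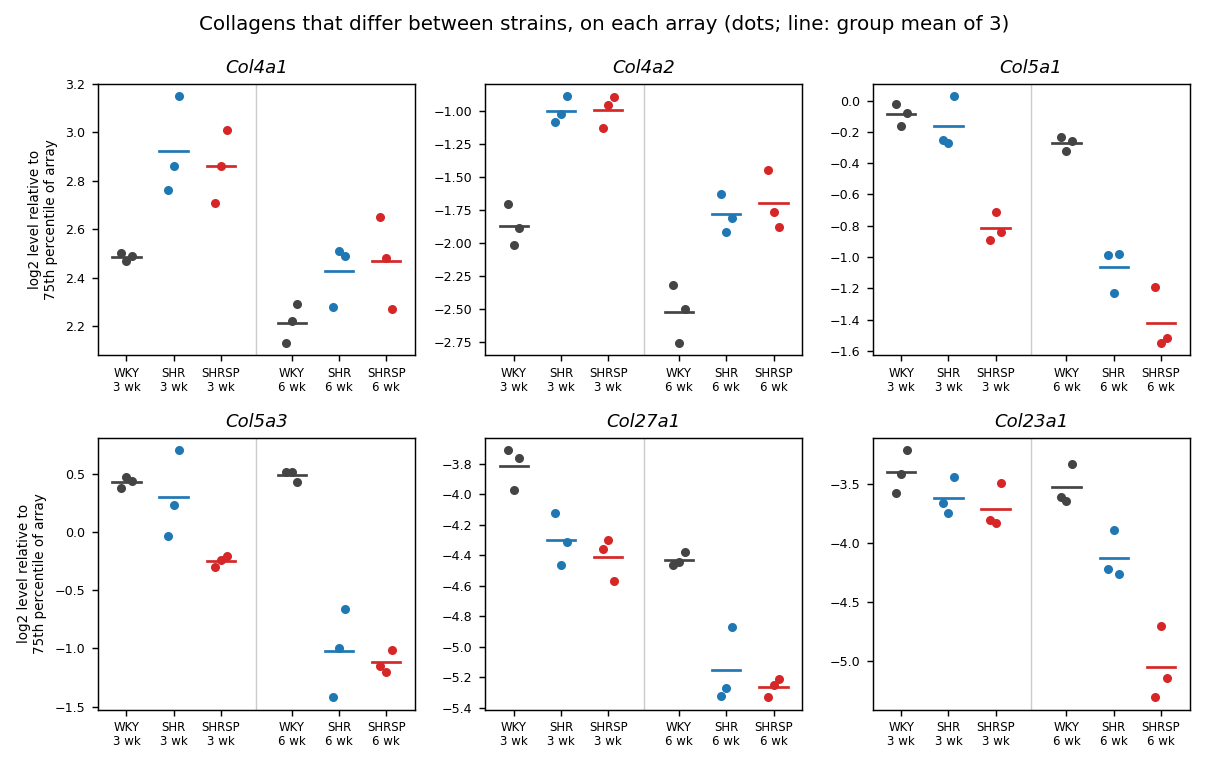
Log2 level relative to the array's 75th percentile (vertical axes) on each array for Col4a1, Col4a2, Col5a1, Col5a3, Col27a1 and Col23a1, by strain and age (horizontal axes); dots are arrays and lines are means of 3. Col4a2 lies above WKY and Col27a1 below WKY in both strains at both ages; Col5a3 and Col23a1 separate mainly at 6 weeks.

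Col23a1, a transmembrane collagen, separated the 3 strains at 6 weeks. It read -3.57, -3.41 and -3.21 in WKY, -3.66, -3.74 and -3.44 in SHR and -3.80, -3.83 and -3.49 in SHRSP at 3 weeks, where no difference was called. By 6 weeks it read -3.61, -3.64 and -3.33 in WKY, -4.22, -3.89 and -4.26 in SHR and -5.31, -4.70 and -5.15 in SHRSP. No group of 6-week arrays overlapped another. SHRSP was lower than WKY by 1.53 ± 0.17 (adjusted p = 1.3e-05) and lower than SHR by 0.93 ± 0.17 (adjusted p = 0.00163), and both probes agreed. SHR was lower than WKY by 0.60 ± 0.17 (adjusted p = 0.0147), a call lost without WKY array 3 or SHR array 3 (-0.53 to -0.50, adjusted p of 0.06). The age change in SHRSP differed from that in WKY by -1.22 ± 0.23 (adjusted p = 0.00526) and from that in SHR by -0.84 ± 0.23 (adjusted p = 0.0323); the latter was lost without any 1 of 6 of the 12 arrays (-0.81 to -0.71, adjusted p up to 0.0866), with quantile normalization (-0.78, adjusted p = 0.076), with normexp background correction (-0.59, adjusted p = 0.0526) and without the arrays of high albumin (-0.95, adjusted p = 0.131).

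Col7a1 and Col18a1 were higher in both hypertensive strains at 6 weeks. Col18a1, whose C-terminal fragment is endostatin, read -0.13, -0.02 and 0.05 in WKY, 0.78, 0.29 and 0.45 in SHR and 0.88, 0.51 and 0.50 in SHRSP. The differences from WKY were 0.54 ± 0.12 (adjusted p = 0.00471) and 0.66 ± 0.12 (adjusted p = 0.00131). Col7a1 differed by 0.63 ± 0.13 and 0.76 ± 0.13 at 6 weeks, and in SHRSP also at 3 weeks (0.77 ± 0.13, adjusted p = 0.000544). Col22a1 was lower in SHRSP than WKY at 6 weeks (-0.81 ± 0.24, adjusted p = 0.0226), and this was lost without any 1 of WKY arrays 2 or 3 or SHRSP arrays 2 or 3 (-0.80 to -0.67, adjusted p up to 0.0875).

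Of the 5 hydroxylases that act inside the cell, P4ha1, Plod1 and Plod2 were higher in SHR than in both other strains at 6 weeks. P4ha1, the catalytic subunit of the main prolyl 4-hydroxylase, read -2.78, -2.68 and -2.96 in WKY, -2.62, -2.47 and -2.39 in SHR and -2.14, -2.39 and -2.09 in SHRSP at 3 weeks. At 6 weeks it read -2.93, -3.07 and -2.78 in WKY, -1.81, -1.78 and -1.83 in SHR and -2.52, -2.97 and -3.11 in SHRSP. The 3-week arrays of SHRSP and SHR touched, and at 6 weeks SHR lay above both other strains, whose arrays overlapped. SHR exceeded WKY by 1.12 ± 0.14 at 6 weeks, 2.174 times the signal (adjusted p = 4.49e-05), and SHRSP was below SHR by 1.06 ± 0.14 (adjusted p = 0.000161); within slides these were 1.27, and -0.71 and -1.31. At 3 weeks SHRSP exceeded WKY by 0.60 ± 0.14 (adjusted p = 0.00543), and the SHR difference of 0.31 was not called.

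With age P4ha1 rose by 0.69 ± 0.14 in SHR (adjusted p = 0.00216) and fell by 0.66 ± 0.14 in SHRSP (adjusted p = 0.0027), with -0.12 in WKY not called. The age change differed between SHRSP and SHR by -1.35 ± 0.20 (adjusted p = 0.000493), and this was kept without each array in turn and without the arrays of high albumin. Against WKY the SHR age change differed by 0.81 ± 0.20 (adjusted p = 0.0286), a call lost without any 1 of 9 of the 12 arrays (0.74 to 0.82, adjusted p up to 0.077) and without the arrays of high albumin (0.94, adjusted p = 0.137). The age change in SHRSP against WKY, -0.54, was not called (adjusted p = 0.1); with the slide block it passed (-0.59, adjusted p = 0.0457), as it did with normexp background correction (-0.51, adjusted p = 0.0496) and without SHRSP 6-week array 1 (-0.71, adjusted p = 0.0169).

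Plod2, the lysyl hydroxylase of the telopeptides, read -2.30, -2.31 and -2.40 in WKY, -1.99, -1.88 and -1.79 in SHR and -1.66, -1.85 and -1.62 in SHRSP at 3 weeks. At 6 weeks it read -2.68, -2.72 and -2.88 in WKY, -1.97, -2.05 and -1.78 in SHR and -2.16, -2.57 and -2.61 in SHRSP. The age difference was -0.05 in SHR (not called), against -0.43 ± 0.12 in WKY (adjusted p = 0.0296) and -0.74 ± 0.12 in SHRSP (adjusted p = 0.00036). The WKY call was lost with slide as a block (-0.39, adjusted p = 0.0506) and without any 1 of 5 of its 6 arrays, all but 6-week array 1 (-0.46 to -0.37, adjusted p up to 0.0946). SHR exceeded WKY by 0.83 ± 0.12 at 6 weeks (adjusted p = 0.000151), and SHRSP was below SHR by 0.51 ± 0.12 (adjusted p = 0.00884). SHRSP exceeded WKY by 0.31, which was not called (adjusted p = 0.0704) but passed with quantile normalization (0.37, adjusted p = 0.0278) and without SHRSP array 3 (0.40, adjusted p = 0.0408). The age change differed between SHRSP and SHR by -0.69 ± 0.17 (adjusted p = 0.0153), and was -0.86 (adjusted p = 0.0531) without the arrays of high albumin. At 3 weeks SHRSP exceeded WKY by 0.63 ± 0.12 (adjusted p = 0.00129) and SHR by 0.45 ± 0.12 (adjusted p = 0.0159), the latter lost without WKY array 3 or SHR array 3 (0.41 and 0.40, adjusted p of 0.0618 and 0.0696) and without the arrays of high albumin (0.35, adjusted p = 0.413).

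Plod1, the lysyl hydroxylase of the helical region, moved less. It read 0.60, 0.57 and 0.51 in WKY, 0.59, 0.51 and 0.60 in SHR and 0.71, 0.76 and 0.77 in SHRSP at 3 weeks, and 0.46, 0.23 and 0.33, 0.91, 0.60 and 0.80, and 0.54, 0.48 and 0.44 at 6 weeks. SHR was above WKY at 6 weeks by 0.43 and SHRSP below SHR by 0.28, without overlap in either case. The age change in SHRSP differed from that in SHR by -0.47 ± 0.12 (adjusted p = 0.0191), lost without SHR 3-week array 2 (-0.44, adjusted p = 0.0533) or the arrays of high albumin (-0.44, adjusted p = 0.194). That in SHR against WKY, 0.42 ± 0.12, was at the threshold (adjusted p = 0.0498) and was lost without any 1 of 10 of the 12 arrays (0.35 to 0.44, adjusted p up to 0.124), with quantile normalization (0.37, adjusted p = 0.0762), with no filter on dim probes (0.42, adjusted p = 0.0791), with the mean of all probes (adjusted p = 0.0528) and without the arrays of high albumin (0.40, adjusted p = 0.351). Plod3, which also glycosylates hydroxylysine, was higher than WKY at 6 weeks by 0.32 in SHR and 0.38 in SHRSP. P4ha2, a second prolyl 4-hydroxylase subunit, was not called in any strain comparison.

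The upstream sequences of P4ha1, Plod2 and Plod1 are shown because these members shared the high 6-week level in SHR. Capitals mark ACGTG or GCGTG, read on either strand, the core letters of the element that hypoxia-inducible factors bind; P4ha1 and Plod2 are known targets of those factors in other tissues. Each is the 250 bases before the RefSeq start, on the gene's own strand (GRCr8): P4ha1 at chr20:27844796-27845045 (plus), Plod2 at chr8:101964068-101964317 (plus) and Plod1 at chr5:163650738-163650987 (minus).
P4ha1: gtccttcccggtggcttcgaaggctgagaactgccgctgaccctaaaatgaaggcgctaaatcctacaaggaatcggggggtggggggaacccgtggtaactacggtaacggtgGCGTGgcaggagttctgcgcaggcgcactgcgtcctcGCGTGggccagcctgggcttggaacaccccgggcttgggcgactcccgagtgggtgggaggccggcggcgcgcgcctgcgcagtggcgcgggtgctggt
Plod2: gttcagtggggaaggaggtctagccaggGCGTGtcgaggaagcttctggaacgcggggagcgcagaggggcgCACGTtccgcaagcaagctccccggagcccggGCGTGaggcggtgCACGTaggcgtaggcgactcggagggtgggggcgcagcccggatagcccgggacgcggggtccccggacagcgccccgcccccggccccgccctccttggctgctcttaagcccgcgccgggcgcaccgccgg
Plod1: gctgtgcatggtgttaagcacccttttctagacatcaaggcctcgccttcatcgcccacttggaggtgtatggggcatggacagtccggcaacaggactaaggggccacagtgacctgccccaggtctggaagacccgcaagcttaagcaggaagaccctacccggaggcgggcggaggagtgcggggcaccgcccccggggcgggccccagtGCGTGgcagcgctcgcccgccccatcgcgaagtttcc
P4ha1 holds 2 matches, Plod2 4 and Plod1 1. Of the 33469 windows of this length, 36.7% hold at least 1 match, and P4ha2, which was not called in any strain comparison, holds 5.

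Pcolce, the enhancer of procollagen C-proteinase, rose with age in both hypertensive strains. It read 4.83, 5.0 and 4.89 in WKY, 5.09, 5.14 and 5.12 in SHR and 4.87, 4.79 and 5.10 in SHRSP at 3 weeks. By 6 weeks it read 4.74, 4.67 and 4.96 in WKY, 5.93, 5.59 and 5.64 in SHR and 5.95, 5.86 and 5.89 in SHRSP. WKY stayed where it was (-0.12, not called), while SHR rose by 0.60 ± 0.11 (adjusted p = 0.000903) and SHRSP by 0.98 ± 0.11 (adjusted p = 1.38e-05), the opposite of the fibrillar chains in the same glands. The age change differed from that in WKY by 0.72 ± 0.15 in SHR (adjusted p = 0.0152) and by 1.1 ± 0.15 in SHRSP (adjusted p = 6e-04). At 6 weeks the strains exceeded WKY by 0.93 ± 0.11 and 1.11 ± 0.11 (adjusted p = 2.39e-05 and 4.08e-06), 1.906 and 2.159 times its signal. A second probe gave 0.90 and 1.13, and the slide that held these groups gave 0.95 and 1.22. Without the arrays of high albumin the SHR age change differed from WKY by 0.74 (adjusted p = 0.145).

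SHRSP and SHR differed by 0.18 in Pcolce at 6 weeks, which was not called (adjusted p = 0.289); quantile normalization gave 0.36 (adjusted p = 0.0121). The age change of SHRSP against SHR, 0.38, was not called (adjusted p = 0.117) but passed with quantile normalization (0.63, adjusted p = 0.00477) and without SHR 6-week array 1 (0.48, adjusted p = 0.0361). Its probe is given as chr12:19672506-19672565 on rn4. At 3 weeks the mean of Pcolce was 4.92 in SHRSP and 4.91 in WKY. Of 10 chromaffin markers, 7 were then higher in SHRSP, with summed levels of 130 to 147 against 82.4 to 89.2 in WKY. At 6 weeks 7 of 10 were higher than in WKY in SHR and 6 of 10 in SHRSP. Their summed levels were 67.8 to 74.6 in WKY, 118 to 141 in SHR and 113 to 140 in SHRSP. Cortex markers were higher in 5 of 10 in each strain, with summed levels of 835 to 924, 938 to 1010 and 841 to 916. Fat markers were lower in 2 of 9 and 1 of 9, with summed levels of 46.3 to 106, 33.8 to 48.3 and 45.1 to 65.3. Fibroblast markers were lower in 3 of 15 in SHR and in 0 of 15 in SHRSP. Their part in these results was not tested.

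**Figure D5:**
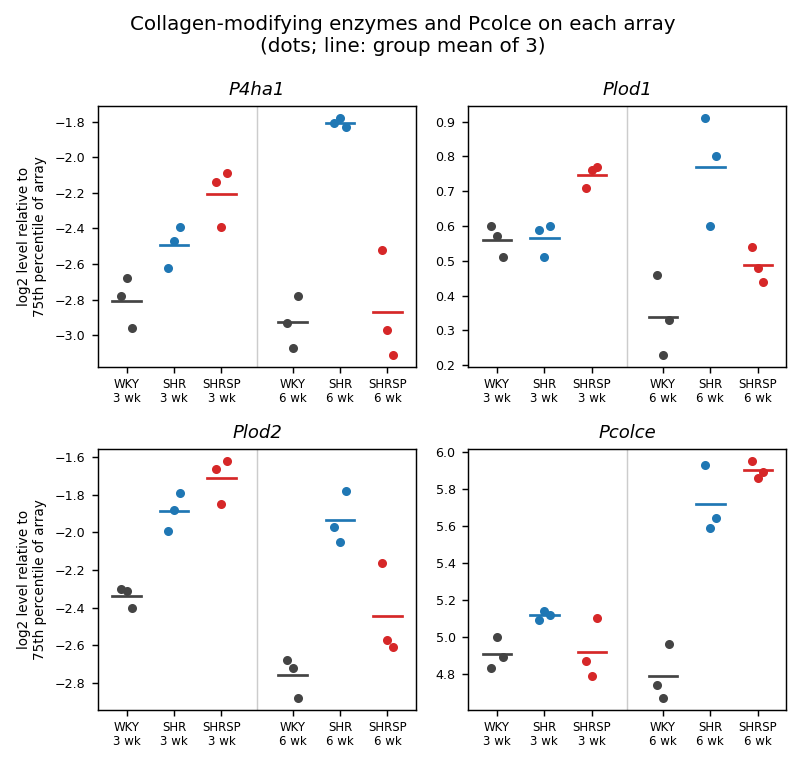
Log2 level relative to the array's 75th percentile (vertical axes) on each array for P4ha1, Plod1, Plod2 and Pcolce, by strain and age (horizontal axes); dots are arrays and lines are means of 3. Among the 6-week groups P4ha1 and Plod2 are highest in SHR, and with age Pcolce rises in SHR and SHRSP but not in WKY.

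Counted over all members, few age changes differed between strains. The signs below are those of the difference between age changes and do not give the size of either change. As SHR minus WKY, 3 were positive (P4ha1, Pcolce and Plod1) and 2 negative (Col5a1 and Col5a3), against 3.4% and 2.41% of all genes. As SHRSP minus WKY, 1 was positive (Pcolce) and 3 negative (Col11a2, Col5a3 and Col23a1), against 3.72% and 6.36%. As SHRSP minus SHR, 4 were negative (P4ha1, Plod1, Plod2 and Col23a1), against 7.48% of all genes. In that comparison 0 were positive, against 4.44%, with 1 positive at an unadjusted limma p below 0.05. The type I and III chains, whose falls were the largest in SHR, were not called different between strains (Col1a1 -0.39 and Col3a1 -0.65 in SHR against WKY). Leaving out 1 array gave 2 to 5 calls for SHR against WKY (2 without WKY 3-week array 2; 3 without WKY 3-week array 1, SHR 3-week array 1 or 2, WKY 6-week array 2 or SHR 6-week array 1). For SHRSP against SHR it gave 2 to 5 (2 without SHR 3-week array 2). Without the arrays of high albumin the counts were 0 for SHR against WKY (limma, with 8 members at an unadjusted p below 0.05), 4 for SHRSP against WKY and 1 for SHRSP against SHR, that of P4ha1.

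Other genes of collagen folding and processing moved in both directions. Of 18 tested, 1 was higher and 3 lower with age in WKY, 3 higher and 5 lower in SHR, and 1 higher and 5 lower in SHRSP. The shares called were 22.2%, 44.4% and 33.3%, where over all genes they were 12.3%, 29.3% and 29%. At 6 weeks 6 were higher and 2 lower in SHR than in WKY, and 5 higher and 4 lower in SHRSP (44.4% and 50%, against 29.2% and 23.9% of all genes). Loxl4, another lysyl oxidase, was lower by 1.88 in SHR and 2.13 in SHRSP at 6 weeks, and by 0.84 and 1.53 at 3 weeks. P3h2, a prolyl 3-hydroxylase of basement membrane collagen, was higher by 0.89 and 0.95 at 6 weeks and by 1.42 and 1.0 at 3 weeks. Adamts2, which removes the N-terminal propeptide of fibrillar collagens, was lower by 0.57 and 0.87 at 6 weeks, while P4hb, the partner subunit of P4ha1, was higher by 0.56 and 0.32. Serpinh1, the collagen chaperone HSP47, was not called in any comparison.

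Among 8 tested collagen receptors, 1 was higher and 1 lower with age in WKY and in SHR, and 1 higher and 3 lower in SHRSP (25%, 25% and 50%, against 12.3%, 29.3% and 29% of all genes). Ddr1, a receptor kinase for collagen, rose by 0.98, 0.72 and 1.37 in WKY, SHR and SHRSP, and Mrc2, which takes collagen up into cells, fell by 0.42, 0.32 and 0.48. Itga2, a collagen-binding integrin chain, fell in SHRSP (-2.02, with -0.40 and -0.28 in WKY and SHR not called), and its age change in SHRSP differed from WKY by -1.62 and from SHR by -1.74, both called. Of 12 genes of TGF-beta signalling, the main inducer of fibrillar collagens, 1 was higher and 2 lower with age in WKY, 0 and 3 in SHR, and 1 and 4 in SHRSP (25%, 25% and 41.7%, against the same shares of all genes). In the average over strains, 2 of these 12 were higher and 7 lower, and 1 receptor was higher and 4 lower. Those shares were 75% and 62.5%, against 39.4% of all genes. Receptors called in SHRSP against WKY were 62.5% at 3 weeks and 50% at 6 weeks, against 26.2% and 23.9%. In SHR against WKY they were 12.5% and 25%, against 18.2% and 29.2%. For the TGF-beta genes in SHR against WKY the shares were 33.3% at 3 weeks and 41.7% at 6 weeks, against 18.2% and 29.2%. In SHRSP against WKY they were 41.7% and 33.3%, against 26.2% and 23.9%, with 2 higher and 2 lower at 6 weeks. The lists are small, and whether either stands apart was not tested. Tgfb2 was higher than in WKY by 1.48 and 1.72 at 3 weeks and by 1.64 and 1.45 at 6 weeks in SHR and SHRSP, whereas Tgfb1 was called only in SHR at 6 weeks (0.44). Ccn2, a target of the pathway, differed with age by -0.93, -0.66 and -2.45, all called.

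The arrays lay on 5 slides, of which 3 or fewer held both groups of any comparison. For all 9 direct comparisons, every called member had the same sign on each slide that held both groups. These were 19 of 19, 28 of 28 and 28 of 28 for age in WKY, SHR and SHRSP. The strain comparisons at 3 and then 6 weeks gave 5 of 5, 9 of 9, 1 of 1, 15 of 15, 13 of 13 and 6 of 6. The members were chosen by calls on the same arrays, so this is no independent test of the sign. For age in SHR and in SHRSP, and for both strains against WKY at 6 weeks, only 1 slide held both groups. Of the slides, 1 carried 6-week arrays only: WKY array 2, SHR arrays 2 and 3, and SHRSP array 3. No 3-week array shared its scan date, so age was partly tied to slide and to scan date, most in SHR. The part of scan date in the age differences was not tested. With slide as a block, all 13 calls of a difference in age change between strains were kept (5 of 5, 4 of 4 and 4 of 4). The same block kept 17 of 19, 26 of 28 and 27 of 28 age calls in WKY, SHR and SHRSP. All strain calls at 3 weeks were kept. At 6 weeks it kept 14 of 15 for SHR against WKY, 11 of 13 for SHRSP against WKY and 5 of 6 for SHRSP against SHR.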

How the data were processed

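Per the file headers and the submitters' processing notes, the authors scanned each one-colour (Cy3) array and extracted it with Agilent Feature Extraction 10.5.1.1; the deposited processed signal is a linear intensity, detrended within the array and not normalized between arrays. The series' deposited table held the same intensity values as the scanner files (largest difference 0). Here controls and outlier spots were left out, log2 intensities were scaled to each array's 75th percentile, repeated spots were averaged and the brightest probe stood for a gene. Genes well above background on all 3 arrays of a group (20859) were fitted with limma 3.58.1 in R 4.3.3 as 6 group means over 18 arrays, without a block, and tested by moderated contrasts: 9 pairwise, 3 between age changes and the mean age effect, with Benjamini-Hochberg adjustment and a threshold of 0.05. The fit was tested on simulated data. With 3 arrays a group, the number of arrays limits the precision.

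The members, gene lists and comparisons were chosen with earlier results of these data known. Full statistics are given for called members with the largest differences (up to 5 each way), for Col1a1, Col1a2, Col3a1, Col4a1, Col4a2, Col6a1, Col15a1, Col18a1, P4ha1, Plod2, Lox and Pcolce in the comparisons described, and for members whose age change differed; further members are given by their differences. Of the other lists, up to 4 genes are named per comparison, those of lowest adjusted p; Tgfb1, Serpinh1 and P4hb were chosen after their values were seen. Probe positions are those of the array annotation (rn4). RefSeq (GRCr8) gave names by accession for 17328 of 30367 probes, neighbours and promoter windows. Replicate numbers were checked as pairs: of 45 correlations between same-numbered arrays, 13 were over 0.1 (range -0.525 to 0.583), so the numbers were not used as pairs. Marker lists for skeletal muscle, Schwann cells, macrophages, liver and kidney, and cartilage and bone were also counted.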

Additional observations from a re-analysis of the deposited data

Results flagged for a closer look

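The age change of 9 members differed between strains by limma's test of the difference itself, in 13 comparisons, on the log2 scale and as coded (first strain minus second). In SHR against WKY it differed for Col5a1 (-0.72 ± 0.16), Col5a3 (-1.38 ± 0.25), P4ha1 (0.81 ± 0.20), Pcolce (0.72 ± 0.15) and Plod1 (0.42 ± 0.12). SHRSP against WKY gave Col11a2 (-1.01 ± 0.21), Col23a1 (-1.22 ± 0.23), Col5a3 (-0.92 ± 0.25) and Pcolce (1.1 ± 0.15). For SHRSP against SHR the members were Col23a1 (-0.84 ± 0.23), P4ha1 (-1.35 ± 0.20), Plod1 (-0.47 ± 0.12) and Plod2 (-0.69 ± 0.17). Pcolce in SHRSP against WKY and P4ha1 in SHRSP against SHR had the smallest adjusted p (6e-04 and 0.000493) and were kept without each array in turn.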

How the results depend on the processing

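Under the alternatives tried, no named call changed sign. The counts of called members stayed within 1.5 times their value with normexp background correction, no filter, a filter on all 18 arrays, the mean of all probes, the series table and quantile normalization. With slide as a block, SHR against WKY at 3 weeks gave 8 calls in place of 5. Fitting only the arrays of the groups compared gave 9 calls in place of 15 for SHR against WKY at 6 weeks. SHRSP at 6 weeks gave 8 in place of 13 against WKY and 2 in place of 6 against SHR. Age in WKY gave 11 in place of 19. At 3 weeks SHR against WKY kept its 5 calls and gained 1, and SHRSP against WKY kept 9 and gained 2. With this fit 20 named calls were lost and 1 was gained. Among those lost were Plod2 in SHRSP against SHR (adjusted p = 0.123) and Col18a1 in SHR against WKY (adjusted p = 0.0703), both at 6 weeks. The fit had fewer residual degrees of freedom and its own estimate of the spread, and the cause of these changes was not tested. With the replicate block, SHRSP against SHR at 3 weeks gave 2 in place of 1 and Col3a1 in SHR against WKY at 6 weeks was no longer called; no other named call changed. Without the 3 arrays of high albumin, chosen after seeing the data, the counts were 0 (SHR against WKY at 3 weeks), 0 (SHRSP against SHR at 3 weeks), 14 (age in SHR), 0 (age change in SHR against WKY) and 1 (age change in SHRSP against SHR).

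Leaving out 1 array gave 2 to 7 calls in SHR against WKY at 3 weeks, 1 to 2 in SHRSP against SHR at 3 weeks (2 without SHR array 1), 2 to 5 in the age change of SHR against WKY and 2 to 5 in that of SHRSP against SHR. Of 111 named calls, 90 were kept without each array in turn. Quantile normalization turned the split of all genes from 1405 higher and 1713 lower to 1632 and 1265 (SHRSP against SHR at 6 weeks), from 2190 and 3849 to 2787 and 2981 (age in SHRSP), from 776 and 1326 to 989 and 990 (age change, SHRSP against WKY) and from 926 and 1559 to 1071 and 1087 (age change, SHRSP against SHR, where the median of all genes moved from -0.168 to -0.058). The members then split 1 higher and 4 lower, 3 and 24, 1 and 3, and 1 and 3. The cause of these changes was not tested.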

Other observations

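Markers of the remaining cell types counted beside the members gave these values. Schwann cell markers had a summed level of 1.39 to 3.51 in SHR at 3 weeks and of 1.05 to 1.87 in the other groups. Macrophage markers were higher than in WKY in 5 of 9 in SHRSP at 3 weeks, with summed levels of 10.7 to 11.9 against 6.72 to 7.35. The liver and kidney list reached 80.1 in SHR at 3 weeks and 2.83 in SHRSP at 3 weeks, and lay between 0.266 and 0.567 in the other 4 groups. Skeletal muscle markers summed to 0.203 or less in every group, and those of cartilage and bone to 0.692 or less.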
